A study of Mus musculus with 15 samples.

Results

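Goblet cells of the large intestine make the mucus that separates bacteria from the epithelium. They fold and store the gel-forming mucin Muc2 in granules together with smaller secreted proteins, and release both into the lumen, while other epithelial mucins stay anchored in the cell membrane as part of the surface coat. The level of these transcripts after loss of the bacteria is the question addressed here. The genes described are 10 mucins and goblet cell products of the 45804 genes in the expression table, chosen by gene symbol. They are the secreted proteins Muc2, Fcgbp, Tff3 and Spink4, the goblet cell genes Agr2 and Spdef that act inside the cell, and the transmembrane mucins Muc1, Muc4, Muc13 and Muc20.

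Ceca came from male WT C57BL/6 mice that were gavaged for 30 days. The sample labels give an age of 20 weeks, which is older than the authors' starting age and 30 days of gavage would make them. Antibiotic-induced microbiome depletion (AIMD, n = 7) used ampicillin, vancomycin, metronidazole, neomycin and the antifungal amphotericin B, and Vehicle mice (n = 8) received water. The ceca were emptied and the wall was sequenced as a whole, so fewer goblet cells and less RNA per goblet cell cannot be told apart. Mice shared cages, and which mice did so, the lane and the time of sacrifice were not used here. Levels are FPKM (reads on a gene scaled by exon length and sequencing depth) divided by a size factor, and can be compared between genes. The reads recovered from the FPKM numbered 8679555 to 18108267 in AIMD mice and 4372267 to 14405675 in Vehicle mice. All 10 epithelial and all 10 absorptive colonocyte markers passed the filter on low values, which the AIMD mice alone can satisfy. The absorptive marker Slc9a3 ran from 1.24 to 10.3 FPKM in AIMD mice and from 0 to 0.735 in Vehicle mice (median 0.0922). Passing thus does not show that each marker was present in both groups. As a sum, the absorptive markers reached 22096 to 31062 FPKM in AIMD mice and 19296 to 27626 in Vehicle mice.

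Vehicle mouse 8 stood apart from the rest. It had the fewest reads and the highest smooth muscle score, 7.40 as a mean log2 level of 8 marker genes, against at most 6.09 in any other mouse. Smooth muscle markers summed to 214 to 813 FPKM in AIMD mice and to 518 to 3028 in Vehicle mice, with 2 of 8 tested markers lower and 0 higher in AIMD, and none was at 0 in any mouse. Markers of enteric neurons and glia summed to 2.82 to 5.08 FPKM in AIMD mice and 5.13 to 79.0 in Vehicle mice, and 5 of 6 tested were lower in AIMD. Sox10, a glial marker of that list, was above 0 in 10 of 15 mice. Epithelial markers summed to 6368 to 10056 FPKM in AIMD mice and 5740 to 8090 in Vehicle mice, with 3 of 10 higher and 1 lower. Beside these counts, 19.4% of all tested genes were called higher and 16.6% lower in AIMD. How far tissue make-up enters the values of the members was not tested beyond fits with a tissue score as a covariate, which are given for a member where they change its call.

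The members differ in what they encode, and the reading frames show it. Tff3 and Spink4 are small secreted proteins held together by cysteine pairs. Their whole coding sequences, from GENCODE M21 on GRCm38, are printed with each cysteine codon in capitals because these are the most abundant secreted members and moved differently. Tff3 lies on the minus strand of chromosome 17 (chr17:31125306-31129646), has 82 codons with the stop, and 7 of them encode cysteine. Spink4 lies on the plus strand of chromosome 4 (chr4:40920052-40931395), has 87 codons with the stop, and 6 of them encode cysteine.
Tff3: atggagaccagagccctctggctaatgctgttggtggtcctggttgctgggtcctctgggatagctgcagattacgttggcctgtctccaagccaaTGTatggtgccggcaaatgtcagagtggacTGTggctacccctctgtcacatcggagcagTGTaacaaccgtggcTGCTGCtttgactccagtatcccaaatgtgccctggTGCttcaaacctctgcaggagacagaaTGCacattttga
Spink4: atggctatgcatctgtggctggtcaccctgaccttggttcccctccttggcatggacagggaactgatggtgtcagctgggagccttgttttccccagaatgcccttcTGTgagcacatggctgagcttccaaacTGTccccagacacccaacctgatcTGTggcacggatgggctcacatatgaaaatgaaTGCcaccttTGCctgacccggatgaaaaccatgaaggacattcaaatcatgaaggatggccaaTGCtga

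The transmembrane mucins instead carry long stretches rich in serine, threonine and proline, where sugar chains attach. Codons for these residues made up 44.8% of the longest reading frame of Muc4, 44.0% of Muc1, 43.4% of Muc20 and 38.0% of Muc13, against 17.2% in Spink4, 19.0% in Fcgbp, 19.9% in Agr2, 20.2% in Spdef and 22.0% in Tff3. Muc13, on chromosome 16 (chr16:33794037-33819934, plus strand), holds a perfect tandem repeat with a unit of 81 bases that runs for 433 bases, or 5.35 copies. The first unit in frame, coding bases 118 to 198, is printed with codons for serine, threonine or proline in capitals, 18 of its 27 codons, as an example of such a stretch.
Muc13 repeat unit: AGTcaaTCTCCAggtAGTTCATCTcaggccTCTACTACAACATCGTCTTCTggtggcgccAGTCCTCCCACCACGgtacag

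The annotation of Muc2 is incomplete in this release, which bears on its values. Muc2 lies on chromosome 7 (chr7:141690340-141754693, plus strand). Its longest annotated coding sequence, of 2770 bases, begins with AAG in place of a start codon and is not a whole number of codons. Its share of codons for serine, threonine or proline is therefore not given. None of the 6962 windows of 50 bases, the read length, occurs more than once within the gene. The Muc2 values thus describe the annotated part alone, with an exon length of 7127 bases. For the other members, 6.42% of the windows of Fcgbp, 5.20% of Muc13, 4.31% of Muc4 and 12.1% of Muc20 occur in transcripts of another gene, and reads there are uncertain. Matches on either strand were counted, and whether the strand of a read was used in counting is not given in the sources used here. No such window was found for Tff3, Spink4, Agr2, Spdef, Muc2 or Muc1.

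Members were ordered by mean FPKM in each group. In Vehicle mice the order was Spink4 (1553), Tff3 (578), Muc13 (435), Agr2 (120), Muc2 (68.2), Fcgbp (48.9), Spdef (6.41), Muc4 (0.955), Muc1 (0.0572) and Muc20 (0.0033). Spink4 was above Tff3 in 8 of 8 Vehicle mice, whereas Tff3 was above Muc13 in 6 of 8 and Muc2 above Fcgbp in 5 of 8, so neither of these last pairs was separated in every mouse. In AIMD mice Fcgbp, at 63.1, stood above Muc2, at 36.3, in 7 of 7 mice. Spink4, at 1405, and Tff3, at 1214, were not separated there, since Spink4 was the higher in 4 of 7 mice.

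**Figure D1:**
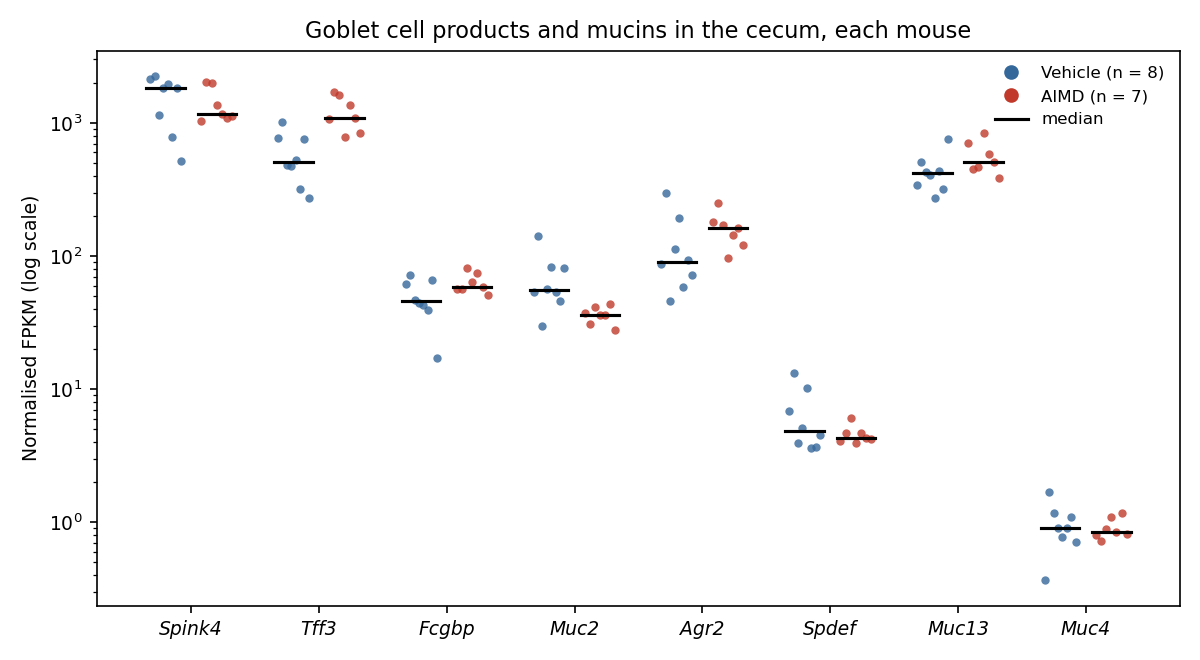
Normalised FPKM (vertical log axis) of the 8 members that passed the filter, with 1 point per mouse, Vehicle in blue (n = 8), AIMD in red (n = 7) and black bars at the medians. Tff3 points of AIMD mice lie above the Vehicle median of 506 in all 7 mice, and Muc2 points of AIMD mice lie below the Vehicle median of 55.2 in all 7.

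Of the 8 members tested, 1 rose in AIMD mice (Tff3) and 1 fell (Muc2), by limma with Benjamini–Hochberg adjustment over 11971 genes. Over all tested genes 36% were called, 19.4% higher and 16.6% lower, so 2 of 8 is no larger a share than the background. The FPKM of the groups overlapped for all 8 members tested, and did not for 8.56% of all tested genes. The median log2 fold change of the 4 secreted members was 0.20, beside 0.0066 over all tested genes. Muc1 and Muc20 did not pass the filter on low values.

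Tff3, the trefoil peptide that goblet cells secrete with mucin and that aids repair of the epithelial surface, was the member with the largest change. Its FPKM in AIMD mice was lowest at 790, with a median of 1089 and a highest value of 1721, and in Vehicle mice it was 272, 506 and 1021. Of the AIMD mice, 5 of 7 exceeded every Vehicle mouse, and 7 of 8 Vehicle mice were below every AIMD mouse, so the groups overlapped through Vehicle mouse 2 alone. AIMD mice averaged 1214 ± 366 FPKM (SD, n = 7) and Vehicle mice 578 ± 252 FPKM (SD, n = 8), a ratio of 2.10. On the scale of log2(FPKM + 0.5), which understates changes of low genes, Tff3 rose by 1.14 (SE 0.27, adjusted p = 0.0037 by limma), and 2.39% of tested genes had a larger log2 fold change. The two-sided exact permutation test over 6435 splits gave p = 0.0019. Without Vehicle mouse 8, the lowest for Tff3, the log2 fold change was 1.00 (adjusted p = 0.0048).

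Muc2, the mucin that builds the secreted gel, fell. Its FPKM was 28.1, 36.4 and 43.6 in AIMD mice (lowest, median and highest) and 29.8, 55.2 and 142 in Vehicle mice. Of the Vehicle mice, 7 of 8 exceeded every AIMD mouse, and Vehicle mouse 3, at 29.8, was the exception. AIMD mice averaged 36.3 ± 5.44 FPKM (SD, n = 7) and Vehicle mice 68.2 ± 34.7 FPKM (SD, n = 8). On the log2 scale the difference was -0.77 (SE 0.24, adjusted p = 0.019 by limma, two-sided exact permutation p = 0.0085). The highest value came from Vehicle mouse 2, and without it the change was -0.60 (adjusted p = 0.022). With the smooth muscle score as a covariate the difference was again -0.60 and the call was lost (adjusted p = 0.11), while with the epithelial score it was -1.05 (adjusted p = 0.0047).

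Fcgbp, a large cysteine-rich protein that is bound to Muc2 in the mucus gel, had 218 cysteine codons in its reading frame (chr7:28071236-28120862, plus strand). Its FPKM was 50.8, 58.2 and 81.0 in AIMD mice and 17.2, 45.9 and 72.1 in Vehicle mice. The lowest value was that of Vehicle mouse 8, and 5 of 8 Vehicle mice were below every AIMD mouse. Fcgbp differed by 0.45 on the log2 scale (95% interval -0.039 to 0.95, limma adjusted p = 0.14), and it was 0.26 without Vehicle mouse 8 (adjusted p = 0.19).

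Spink4, a goblet cell product with the fold of a Kazal-type protease inhibitor, was the most abundant member in both groups. Its FPKM was 1028, 1170 and 2043 in AIMD mice and 515, 1814 and 2252 in Vehicle mice. Both the lowest and the highest values were those of Vehicle mice, 8 and 2, so that the AIMD range lay within the Vehicle range. The difference between groups was -0.044 on the log2 scale (95% interval -0.68 to 0.59, limma adjusted p = 0.92), an interval that covers changes in either direction.

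Agr2, a protein disulfide isomerase of the endoplasmic reticulum needed for Muc2 production, lies on chromosome 12 (chr12:35992907-36004087, plus strand). Its FPKM was 96.3, 162 and 252 in AIMD mice and 46.2, 89.7 and 297 in Vehicle mice. All 7 AIMD mice were above the Vehicle median, and Vehicle mouse 2 alone was above every AIMD mouse. The log2 fold change of 0.62 (95% interval -0.067 to 1.32) did not pass the threshold (limma adjusted p = 0.15). Without Vehicle mouse 2 it was 0.85 and passed (adjusted p = 0.022).

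Spdef, a transcription factor of the ETS family that drives goblet cell maturation, was low in both groups (chr17:27714352-27728955, minus strand). Its FPKM was 3.97, 4.30 and 6.05 in AIMD mice and 3.65, 4.84 and 13.3 in Vehicle mice, from 73 to 254 reads per AIMD mouse and 44 to 396 per Vehicle mouse. The Vehicle values spread over 3.63 times, and 3 Vehicle mice exceeded every AIMD mouse. Spdef thus had a log2 fold change of -0.32 (95% interval -0.81 to 0.18, limma adjusted p = 0.30).

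Among the transmembrane mucins, only Muc13 was abundant. This mucin of the enterocyte and goblet cell surface had an FPKM of 386, 510 and 847 in AIMD mice and 271, 417 and 763 in Vehicle mice. The groups overlapped, and the highest Vehicle value was that of mouse 8. Between the groups Muc13 differed by 0.40 on the log2 scale (95% interval -0.048 to 0.84, limma adjusted p = 0.15), and without Vehicle mouse 8 it was 0.52 and passed the threshold (adjusted p = 0.034).

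Muc4, a large membrane mucin that can bind ErbB2 (chr16:32735886-32782391, plus strand), was near the lower limit, at 0.723, 0.840 and 1.18 FPKM in AIMD mice and 0.367, 0.903 and 1.69 in Vehicle mice. These levels rest on 103 to 201 reads per AIMD mouse and 32 to 272 per Vehicle mouse. The log2 fold change was -0.012 (95% interval -0.35 to 0.33, limma adjusted p = 0.96).

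Muc20 (chr16:32777419-32797435) lies on the opposite strand and overlaps the end of Muc4 by 4973 bases. It had 12 reads over all 7 AIMD mice and 1 over all 8 Vehicle mice, with at least 1 read in 6 of 7 and in 1 of 8 mice. AIMD libraries were deeper, with a median of 11244000 recovered reads against 7855200, and 12.1% of the windows of Muc20 occur in Muc4 when both strands are searched, so no fold is given. Muc1 (chr3:89229057-89233381, plus strand), the membrane mucin best known from glandular epithelia, had 10 reads in AIMD mice and 10 in Vehicle mice, with at least 1 read in 6 of 7 and 4 of 8 mice. For Muc1 no difference was detectable at this depth.

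**Figure D2:**
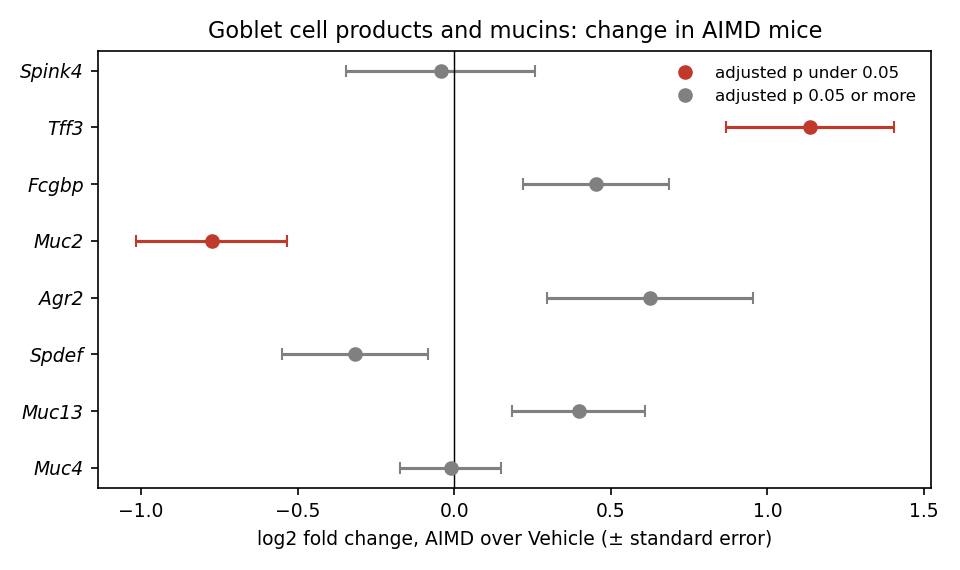
log2 fold change of each tested member in AIMD over Vehicle mice (horizontal axis), with bars of 1 standard error, coloured red where the limma adjusted p was under 0.05. Tff3 stands at 1.14 and Muc2 at -0.77, on opposite sides of 0, and the other 6 members in grey lie between -0.32 and 0.62.

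Levels were less scattered in AIMD mice. The SD of the log2 values was smaller in AIMD than in Vehicle mice for 8 of 8 tested members, as it was for 77.9% of all tested genes. For Muc2 it was 0.22 against 0.67, and for Spdef 0.19 against 0.65. Vehicle mouse 2 had the highest value of its group for 7 of 8 members and the highest of all 15 mice for 5. Vehicle mouse 8 had the lowest value of its group for 3 members, Tff3, Fcgbp and Spink4, and the highest for Muc13.

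A ratio within a mouse does not depend on how its library was scaled, so each tested member was also set against Muc2. The 7 ratios share Muc2 as the denominator and are not independent, and the p-values that follow are not adjusted over them. Since Muc2 itself fell, the ratio of a gene that does not change rises: over 11589 tested genes above 0 in every mouse, the median difference of mean log2 ratios to Muc2 was 0.79, and a difference of 0 is not the value against which a ratio is read. The ratio of Tff3 to Muc2 ran from 21.7 to 55.8 in AIMD mice (median 29.8) and from 3.36 to 16.4 in Vehicle mice (median 7.80). The groups did not overlap, which was the case for the ratio to Muc2 of 8.7% of those 11589 genes, 8.64% with AIMD mice higher. The difference of mean log2 ratios was 1.92, or 3.78-fold (two-sided exact permutation p = 0.00047), and 3.26% of the genes had a larger one.

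The ratio of Agr2 to Muc2 also did not overlap between the groups, at 2.65 to 8.19 in AIMD mice and 0.884 to 2.33 in Vehicle mice. Its difference was 1.41 on the log2 scale, with a two-sided exact permutation p of 0.00016, the smallest that 7 mice against 8 can give, and 13.0% of the genes had a larger one. The ratio of Fcgbp to Muc2, which share the gel, was 1.34 to 2.05 in AIMD mice and 0.212 to 1.58 in Vehicle mice (difference 1.24, exact permutation p = 0.0031). For Muc13 to Muc2 the difference was 1.18 (exact permutation p = 0.0016). Larger differences than that of Fcgbp were found for 20.2% of the genes, and larger than that of Muc13 for 23.5%. The p-values of these ratios are against a difference of 0. Those for Muc4, at 0.80 (exact permutation p = 0.030), and Spdef, at 0.44 (exact permutation p = 0.038), were past 0.05 but not with every mouse left out in turn. The value for Muc4 is close to the median of 0.79 and that for Spdef is below it. Their p-values against 0 thus do not show a change of these members, and a difference from 0.79 was not tested. Spink4 to Muc2 gave 0.74 (exact permutation p = 0.079).

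**Figure D3:**
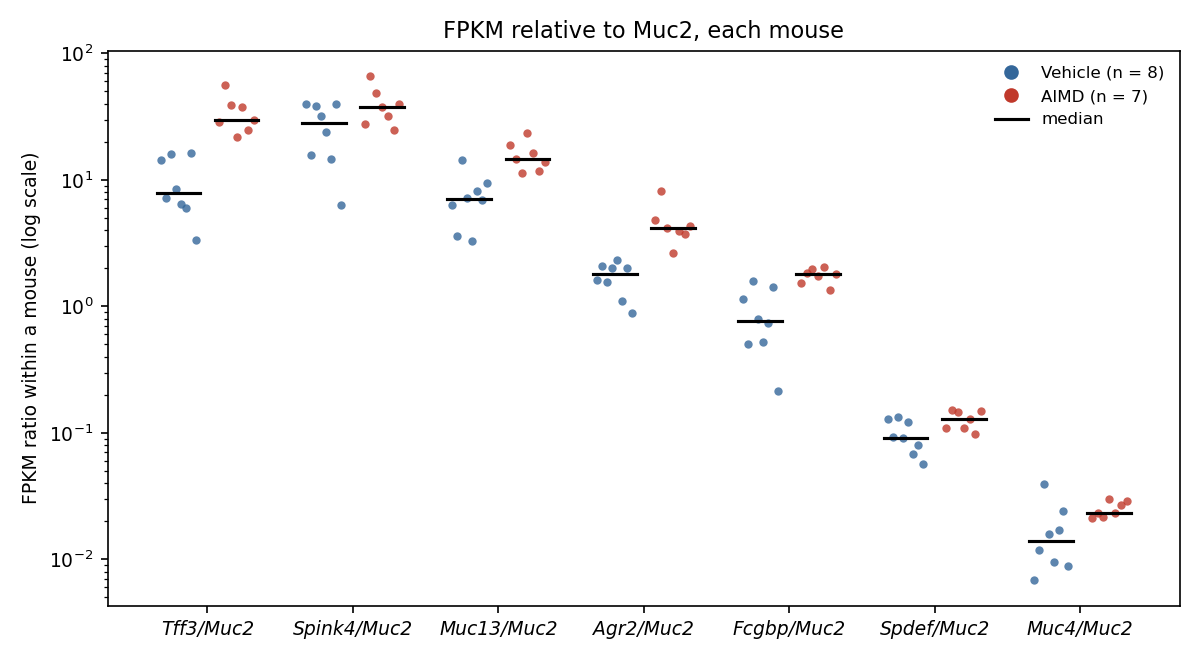
FPKM of each tested member divided by that of Muc2 in the same mouse (vertical log axis), Vehicle in blue (n = 8), AIMD in red (n = 7), black bars at the medians. The groups are apart for Tff3, with the lowest AIMD mouse at 21.7 above the highest Vehicle mouse at 16.4, and for Agr2, and they overlap for the other 5 members.

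A score of circadian clock genes divided the mice into 7 above 0 (3 AIMD, 4 Vehicle) and 8 below 0 (4 AIMD, 4 Vehicle), and Tff3 and Muc2 were compared within each. The log2 difference of Tff3 was 1.14 above 0 (exact permutation p = 0.057) and 1.20 below 0 (exact permutation p = 0.029), and that of Muc2 was -0.72 (exact permutation p = 0.26) and -0.83 (exact permutation p = 0.029). The smallest p that either set of mice can give is 0.029. This split was added after seeing the data, and Npas2, a gene of the score, was itself lower in AIMD mice (log2 fold change -0.52, limma adjusted p = 0.020).

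Other mucin and mucin-like genes were taken from a list of 14. Of these, 13 were in the table and 8 were tested, of which 0 rose and 1 fell, beside 19.4% and 16.6% of all tested genes. The median log2 fold change was -0.22, over a list that also holds mucin-like genes such as Emcn, Podxl and Cd164. The member that fell was Mcam, an adhesion protein of vessels and smooth muscle that is not a mucin of the gut surface, at -0.78 (limma adjusted p = 0.034), a call lost in 9 of 26 other settings. Among these were the smooth muscle score (-0.40, adjusted p = 0.29) and the epithelial score (-0.61, adjusted p = 0.14) as covariates. Muc3, a membrane mucin of enterocytes, averaged 1545 ± 651 FPKM (SD, n = 7) in the AIMD group and 917 ± 561 FPKM (SD, n = 8) in the Vehicle group. Its log2 fold change of 0.78 did not pass (adjusted p = 0.076), and without Vehicle mouse 8 it was 0.99 (adjusted p = 0.012). Cd164, a sialomucin, differed by 0.015 (adjusted p = 0.93). Muc6, Muc5ac and Muc5b, the gel-forming mucins annotated beside Muc2 on chromosome 7, were listed at 0 in every mouse. On chromosome 17, Tff2 and Tff1, the neighbours of Tff3, reached at most 0.502 and 0.316 FPKM.

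Of 16 other goblet cell products tested, 7 rose and 1 fell, beside 19.4% and 16.6% of all tested genes, and the median log2 fold change was 0.30. With the epithelial score as a covariate, 5 rose and 0 fell. Ang4, a bactericidal ribonuclease of Paneth and goblet cells, ran from 8.05 to 22.0 FPKM in AIMD mice and from 1.33 to 3.83 in Vehicle mice, with no overlap. Ang4 rose by 2.28 on the log2 scale (SE 0.26, adjusted p = 8.98e-06 by limma), and 4.70% of its windows occur in Ang5. Guca2a, the precursor of guanylin, was at 4566 ± 1405 FPKM (SD, n = 7) against 2677 ± 798 FPKM (SD, n = 8), and rose by 0.76 (adjusted p = 0.015), a call lost with the epithelial score (0.48, adjusted p = 0.11). Capn9, a calpain of the gut, rose by 0.76 and Sytl2, a Rab27 effector, by 0.75. Zg16, a lectin of the mucus, was the most abundant product at 6386 ± 1752 (SD, n = 7) and 5656 ± 1859 (SD, n = 8) FPKM and did not pass (log2 fold change 0.21, adjusted p = 0.51), although it was called under quantile normalization (0.97, adjusted p = 0.00047). Apart from Ang4, the Paneth cell markers gave 1 higher of 4 tested, beside 19.4% of all tested genes. It was Mmp7 with 1.91 (limma adjusted p = 0.00038), while Lyz1 gave 0.28 (adjusted p = 0.50) and Reg3g -1.75 (adjusted p = 0.17). Mmp7 was near the floor in Vehicle mice, at 0 to 0.718 FPKM (median 0.0759), against 0.830 to 6.07 in AIMD mice. It passed the filter through the AIMD mice, so its call is not independent of the filter.

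Factors of secretory cell fate moved in both directions, with 5 higher and 4 lower of 19 tested, shares near the 19.4% and 16.6% of all tested genes. With the smooth muscle score as a covariate, 2 were higher and 4 lower. Hnf4a, a nuclear receptor of enterocyte differentiation, ran from 117 to 186 FPKM in AIMD mice and from 43.4 to 85.0 in Vehicle mice (log2 fold change 1.25, limma adjusted p = 4.6e-05). Hes1, the Notch target that represses the secretory fate, ran from 23.3 to 53.3 against 57.7 to 136 FPKM (log2 fold change -1.39, adjusted p = 0.00014). Foxa1 rose by 0.85 and Foxa2, its paralog, fell by 1.10 on the log2 scale, both factors of the secretory lineages. Atoh1, the master factor of that lineage and named here after its value was seen, was at 12.2 ± 1.40 (SD, n = 7) and 12.1 ± 7.35 (SD, n = 8) FPKM, with a log2 fold change of 0.20 (adjusted p = 0.61).

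Genes of the endoplasmic reticulum and granules gave 4 higher and 4 lower of 21 tested, again near the 19.4% and 16.6% of all tested genes. Hspa5, the chaperone BiP, rose by 0.59 with groups that did not overlap (141 to 195 against 89.8 to 135 FPKM), and Hyou1, another chaperone, rose by 0.67, a call lost with the epithelial score (adjusted p = 0.083). Selm, a selenoprotein, fell by 1.46 on the log2 scale, Sec61b, a subunit of the translocon, by 0.77 and Tmed3, a cargo receptor, by 0.70. Pdia3, the most abundant of the list, gave -0.15 (limma adjusted p = 0.45), and -0.39 with the smooth muscle score (adjusted p = 0.029).

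Genes of mucus release and processing gave 6 higher and 2 lower of 17 tested, beside 19.4% and 16.6% of all tested genes, and 3 higher and 2 lower with the epithelial score as a covariate. Mep1b, a subunit of the meprin that trims Muc2 in the lumen, ran from 142 to 236 FPKM in AIMD mice and 56.8 to 114 in Vehicle mice (log2 fold change 1.28, limma adjusted p = 2.09e-05). Its partner subunit Mep1a rose by 0.37 (adjusted p = 0.034), a call that was lost in 12 of 26 other settings. Rab27a and Rab3d, GTPases of secretory granules, rose by 0.87 and 0.55, and Stxbp2, which binds syntaxin in granule fusion, by 0.63, though not with the epithelial score (0.39, adjusted p = 0.088).

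Of 8 tested genes of the cytokine signals that act on goblet cells, 1 rose and 0 fell, against 19.4% and 16.6% of all tested genes. Il22ra1, the receptor chain for interleukin-22, rose by 1.61 (limma adjusted p = 0.00015), from 0.458 ± 0.302 (SD, n = 8) FPKM in Vehicle mice to 2.58 ± 1.48 (SD, n = 7) in AIMD mice. It passed the filter of 0.5 FPKM through the AIMD mice, since the Vehicle median was 0.436, so its call is not independent of the filter. Il13ra1 and Stat6, both of the interleukin-13 pathway, differed by -0.30 (adjusted p = 0.093) and 0.13 (adjusted p = 0.42). Il4, Il13, Il22 and Il25 did not pass the filter, and Il13 was listed at 0 in every mouse.

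**Figure D4:**
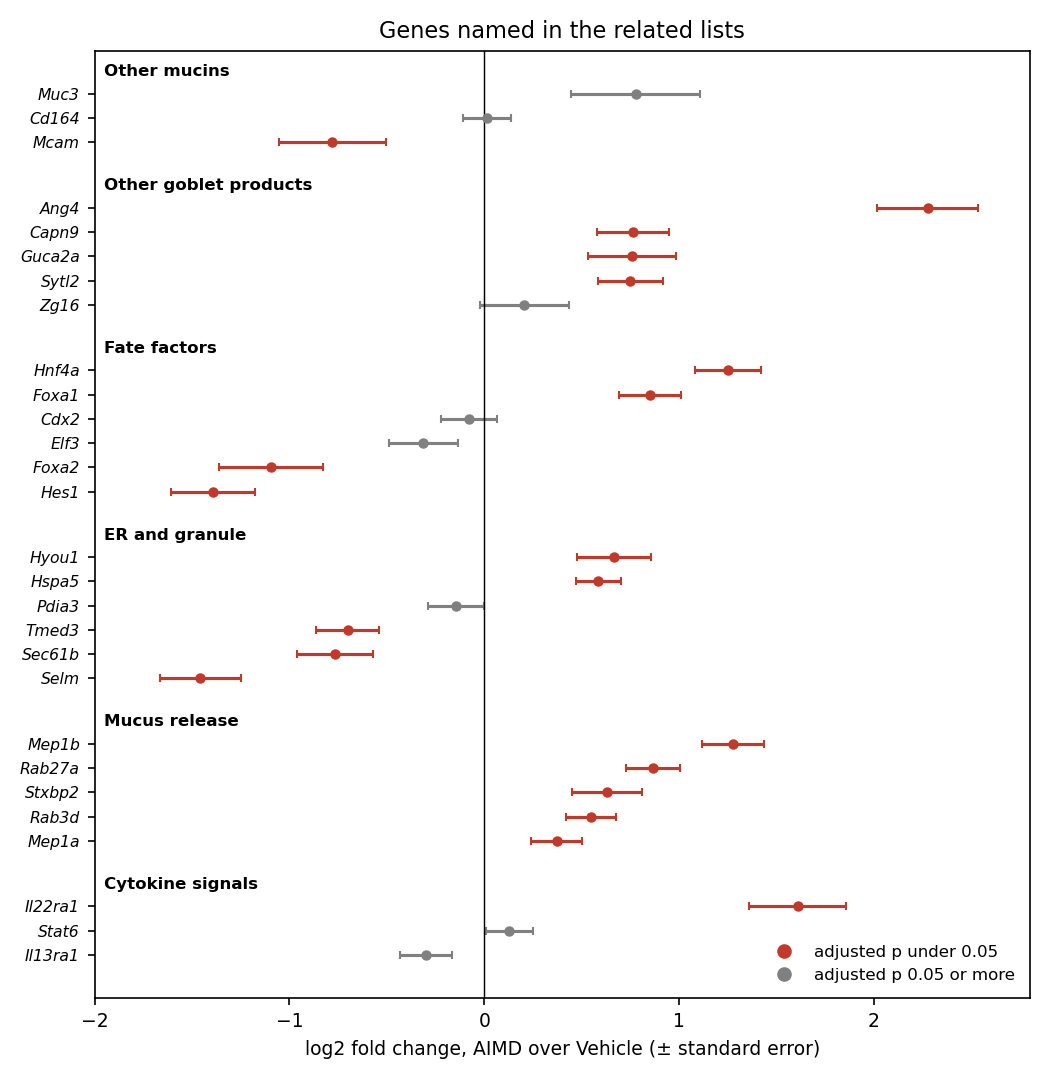
log2 fold change in AIMD over Vehicle mice (horizontal axis, bars of 1 standard error) for the genes named in 6 related lists, red where the limma adjusted p was under 0.05. The mucus release genes named lie to the right of 0, from 0.37 for Mep1a to 1.28 for Mep1b. They were picked by size of change or level, and the 2 genes of that list called lower are not drawn. The fate factors named reach from 1.25 for Hnf4a to -1.39 for Hes1.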

How the data were processed

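Ceca of 7 AIMD and 8 Vehicle mice were sequenced as stranded poly-A libraries with single reads of 50 bases. The authors aligned the libraries to GRCm38 by STAR, used featureCounts for counts per gene and deposited FPKM values by gene symbol, and their own tests used DESeq2 with time of sacrifice as a factor. How counts became FPKM, and how reads matching several genes were counted, is not given in the sources used here. The deposited table has 45808 rows, 27 with a symbol turned into a date, and 4 rows of repeated symbols were left out.

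Size factors by median of ratios, all 1.01, divided the FPKM, and log2(FPKM + 0.5) was tested with limma 3.58.1 (R 4.3.3, trend, two-sided, threshold 0.05 on the adjusted p) for genes with at least 0.5 FPKM in at least 7 mice. Low FPKM values stepped by the worth of a single read, from which reads were recovered for 95.2% of 24279 genes above 0, within 0.02 reads. Single values were compared by exact permutation over all splits of the mice, and p-values measure the spread between these mice. The fit was tested on simulated data. Intervals given for log2 fold changes are 95% intervals from limma.

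The members and lists were chosen with earlier results of these data known. Beside all members, the genes named are, per list, up to 4 called genes with the largest change and up to 2 with the highest mean FPKM. A list name was matched through a RefSeq synonym for Selm. Alternatives were other scalings, pseudocounts and filters, voom on recovered reads, tissue or clock scores as covariates, a replicate block and each mouse left out. Mice split by the clock score were added after seeing the data. The clock score is the mean standardised level of 4 clock genes minus that of 6 genes of the opposite phase. Python 3.11.15 with pandas 2.3.3, numpy 2.4.6, scipy 1.17.1 and matplotlib 3.10.9 did the rest.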

Additional observations from a re-analysis of the deposited data

Results flagged for a closer look

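Of 86 groups of mice checked, 10 held a mouse far from the others of its group by Dixon's criterion. Chance alone passes this criterion in about 1 of 20 groups where values are normally distributed. The check used FPKM and ratios without the log2 scale, and each far mouse was the highest of its group. The number flagged can therefore not be set against that rate. Muc2 stood at 142 FPKM in Vehicle mouse 2, with the next at 82.7. Spdef stood at 6.05 FPKM in AIMD mouse 3, with the next at 4.72. The ratio of Agr2 to Muc2 was 8.19 in AIMD mouse 2, with the next at 4.79.

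Vehicle mouse 8, which had the fewest reads and the highest smooth muscle score, was the far mouse for Muc3 at 2242 FPKM, Mcam at 37.6, Il22ra1 at 1.14 and Stat6 at 17.3. Vehicle mouse 2 was the far mouse for Stxbp2 at 13.3 FPKM and Rab3d at 10.2, and Vehicle mouse 5 for Rab27a at 7.46. The part of tissue make-up or depth in these values was not tested.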

How the results depend on the processing

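Tff3 was called higher in all 26 other settings (log2 fold change 0.97 to 1.36), and Muc2 was called lower in 25 of 26. Called members numbered 1 with the smooth muscle score as a covariate, where Muc2 lost its call, and 2 or 3 elsewhere, 3 without Vehicle mouse 2 (Agr2 added) or Vehicle mouse 8 (Muc13 added). All called genes numbered 3551 to 4638 with each mouse left out, and 4436 with voom on recovered reads, against 4315. With each mouse left out, the mean log2 difference ran from 0.29 to 0.52 for Muc13, 0.26 to 0.55 for Fcgbp and 0.47 to 0.85 for Agr2. The exact permutation p fell under 0.05 on leaving out 1 mouse for Muc13, 1 for Agr2 and any of 3 for Fcgbp. Muc4, at -0.11 to 0.079, and Spink4, at -0.25 to 0.055, changed sign without being called. The log2 ratio to Muc2 ran from 0.65 to 1.01 for Muc4, 0.34 to 0.52 for Spdef and 0.48 to 0.86 for Spink4. The order of AIMD levels kept 8 or 9 of 9 neighbours. In mice with a clock score above 0 (3 against 4), Muc2 gave -0.72 and Tff3 1.14, no longer past 0.05. Genes that were not called changed sign as follows: Muc4 to 0.0070 with a pseudocount of 0.1, Spink4 to 0.094 and Cdx2 to 0.023 and Pdia3 to 0.012 with quantile normalization, Spink4 to 0.0044 with the clock score, Cd164 to -0.084 and Zg16 to -0.00037 with the smooth muscle score. Cd164 ran from -0.049 to 0.061 with each mouse left out. The cause of these shifts was not tested.

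Replicate numbers did not pair the mice, since 2 of 7 same-numbered pairs correlated above 0.1 and 1 of 7 AIMD mice correlated best with its own number. The numbers did follow the clock score, which was above 0 in AIMD mice 1 to 3 and Vehicle mice 1 to 4 and below 0 in the rest. The replicate block, which drops Vehicle mouse 8, gave 4646 called genes, Muc2 at -0.72 (limma adjusted p = 0.038), Tff3 at 1.00 (adjusted p = 0.0048) and a call for Muc13 at 0.52 (adjusted p = 0.047), the same log2 values as without that mouse. Depth limited Muc1 and Muc20, with at most 4 reads in any mouse.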
